A study of Mus musculus with 12 samples.

Results

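The drinking class effect averaged over prefrontal cortex and striatum was the difference between mice that kept drinking ethanol made bitter with quinine and mice that preferred water, taken in each region and averaged with equal weight. All 12 arrays of the 12 in the series entered the comparison, and 18193 named genes, represented by 45037 probe sets with the unnamed ones, were measured on each. Genes that moved the same way in both regions are described first and in most detail, because an average can be carried by 1 region alone.

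Prefrontal cortex and striatum are joined in loops that set how flexibly an animal pursues a reward. Nearly all striatal neurons are inhibitory projection neurons, which receive dopamine. Those of the direct pathway carry the D1 dopamine receptor and the peptide precursors of substance P and dynorphin, and those of the indirect pathway carry the D2 receptor, the precursor of the enkephalins and the orphan receptor Gpr6. The signal of the D1 receptor raises cyclic AMP, and regulators of G protein signalling (Rgs proteins) shorten the signal of G protein-coupled receptors. The D1 and D2 receptor genes, the enkephalin precursor and Gpr6 are known for lower expression in cortex than in striatum.

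The mice were outbred Swiss males that chose from 6 weeks of age between water, 5% ethanol and 10% ethanol. After 10 weeks of acquisition they spent 2 weeks without ethanol and 2 weeks with ethanol again, then 2 weeks with quinine at 0.005 g/L in the ethanol, and 1 further week of the first choice, and were 22 weeks old at the end. Mice labelled Inflexible Drinkers preferred ethanol at every stage and had a mean blood ethanol of 113 ± 11.3 mg/dL, and those labelled Light Drinkers preferred water and had 48 ± 13.3 mg/dL (kind of error not stated). Each of the 4 groups, inflexible prefrontal cortex, light prefrontal cortex, inflexible striatum and light striatum, had 3 arrays. The class was read from each mouse's own drinking and not assigned, and both classes had drunk ethanol; heavy drinkers and mice given water alone were not analysed here. The labels give 1 RNA pool concentration for a group, so the 3 arrays may come from 1 pool of mice. P-values then measure only the spread between arrays, which may be technical, and the labels do not say whether both regions came from the same mice.

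Array values were log2 probe set values with medians from 3.12 to 3.14, and 22.4% to 25.0% of the probe sets of an array lay above 4. The lowest value of any array was 2.76, and values close to it are called the floor. Of the defining markers, 6 of 6 striatal genes were higher in striatum than in cortex in each class and 6 of 7 cortical genes were higher in cortex, the exceptions being Neurod6 in light drinkers and Slc17a7 in inflexible drinkers. The hybridisation controls, bacterial and phage transcripts added to each sample, separated 5 arrays with high from 7 with low control values: inflexible prefrontal replicate 2, light prefrontal replicate 2, inflexible striatum replicates 1 and 3 and light striatum replicate 1 were high. That split was balanced in cortex but held 2 of 3 inflexible against 1 of 3 light arrays in striatum, and its origin was not tested. Values with the split as a term in the fit are given for the main counts and for some genes whose call it changed, not for all.

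On average over the regions, 140 probe sets passed an adjusted p under 0.05 (limma, Benjamini-Hochberg over all 45037), which is 0.311% of those tested. Of these, 67 were higher in inflexible drinkers (0.149%) and 73 were lower (0.162%). Among named genes 68 of 18193 passed (0.374%), 43 higher and 25 lower. The 2 regional differences had the same sign for 51 of the 68 genes and opposite signs for 17. The prefrontal difference was the larger in 58 of the 68, and 59 also passed in prefrontal cortex alone against 3 in striatum alone (Slc35d3, Kcna5 and Arpp21). The other 6 (Rem2, Rgs2, Strip2, Slc8a1, Nckap1 and Washc2) passed only when the regions were averaged. The count of probe sets was 65, 76 and 67 without inflexible prefrontal replicates 1, 2 and 3, and 60 and 58 without light prefrontal replicates 1 and 3. It was 90 and 77 without inflexible striatum replicates 2 and 3 and 76 and 72 without light striatum replicates 2 and 3. With the control split in the fit it was 436, and all 140 were among them.

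A stricter test required the difference in each region to pass, by taking the larger of the 2 regional p-values. No probe set passed it (0% called, smallest adjusted p 0.786, limma with Benjamini-Hochberg). Before adjustment 229 probe sets had a larger regional p under 0.05, and 87 of these represented a named gene. With array weights 2 probe sets passed, 1 of them Rarb and the other without a single gene name. The genes below are therefore given with a description in place of that test: they passed on average and all 3 arrays of 1 class lay above all 3 of the other, the same way in both regions. Over all probe sets 366 were apart in this way (0.813%), and 343 were apart in opposite ways in the 2 regions. Among named genes 126 were apart the same way and 162 in opposite ways. Of all genes 49.5% had the same sign in both regions, and among the 6593 genes above log2 4 the share was 46.0%. Across genes the 2 regional differences had a Pearson correlation of -0.09 and a Spearman correlation of -0.06, given without a test because genes of the same arrays are not independent. The interaction, the striatal minus the prefrontal difference, passed for 141 probe sets (0.313%).

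**Figure D1:**
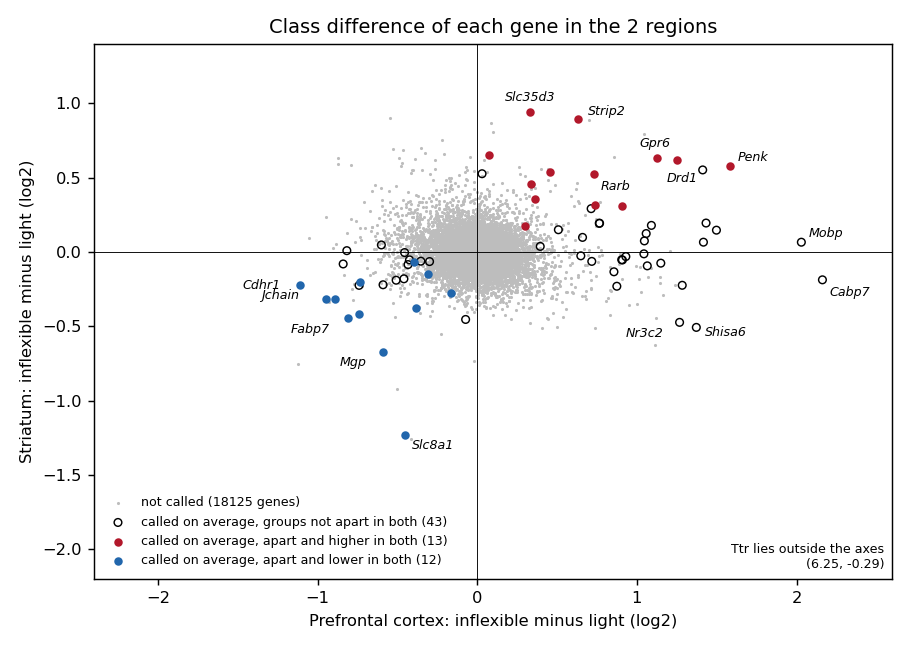
Each point is 1 gene, with its inflexible minus light difference in prefrontal cortex on the horizontal axis and in striatum on the vertical axis (log2, means of 3 arrays each). Grey points did not pass on average, open circles passed on average without being apart in both regions (43 genes), and the filled points were apart and higher (13) or lower (12) in both regions; most open circles lie near the horizontal axis, where the prefrontal difference is the larger.

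Both conditions held for 67 of the 140 probe sets, 22 higher and 45 lower, and 20 of these 67 carried no gene name and 3 several. They held for 25 named genes, 13 higher and 12 lower, of which 2 were clone-named models. The prefrontal difference was the larger in 17 of the 25, the interaction passed for 3 (Slc35d3, Kcna5 and Jchain), and 8 of the 25 had a mean under log2 4. All 25 also passed with the control split in the fit, as did all 68 named genes called on average. The 23 genes with a proper symbol are described below by what their products do, and 10 of them passed in each of the 12 fits that left out 1 array: Penk, Drd1, Gpr6, Rarb, Slc35d3, Jchain, Fabp7, Fmod, Mgp and Tbc1d24. Fewer cells of a type and less RNA per cell cannot be told apart in these tissue samples.

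Promoter windows of RefSeq (GRCm38.p6, 250 bases before to 50 after a start) were used for 18 of the 23 genes, as 21 windows. Penk, Neto1, Mgp, Thbd and Nckap1 were not searched. As a description only, 6 motifs were searched on both strands. Of the 18 genes only Gpr6 held TGACGTCA, the cyclic AMP response element, which 1.79% of all 32851 windows hold. The shorter TGACG, part of that element, was in 6 of the 18 (Adamts3, Gpr6, Jchain, Rgs2, Slc35d3 and Spag5; 4 higher and 2 lower genes), against 20.8% of all windows. CACGTG, the E-box, was in Tbc1d24 alone (7.15% of all windows), and AGAACA, a short glucocorticoid response motif, in Rem2 alone (19.0%). GCGTGGGCG, the EGR site (0.612%), and TGANTCA, the AP-1 site (7.81%), were in none of the 18. The windows with a match to CACGTG, TGACGTCA or AGAACA follow, with that match in capitals, beside a Drd1 window with none of the 3. They lie on the minus strand at chr10:41072241-41072540 (Gpr6), chr13:54055609-54055908 (Drd1) and chr17:24205513-24205812 (Tbc1d24) and on the plus strand at chr14:54475850-54476149 (Rem2), and are written 5′ to 3′ along the gene.
Gpr6: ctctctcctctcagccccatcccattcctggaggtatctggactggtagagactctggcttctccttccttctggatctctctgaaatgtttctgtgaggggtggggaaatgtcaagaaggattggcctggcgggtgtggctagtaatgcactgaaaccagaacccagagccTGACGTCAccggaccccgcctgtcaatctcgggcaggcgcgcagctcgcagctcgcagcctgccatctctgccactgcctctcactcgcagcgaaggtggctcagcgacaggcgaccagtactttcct
Drd1: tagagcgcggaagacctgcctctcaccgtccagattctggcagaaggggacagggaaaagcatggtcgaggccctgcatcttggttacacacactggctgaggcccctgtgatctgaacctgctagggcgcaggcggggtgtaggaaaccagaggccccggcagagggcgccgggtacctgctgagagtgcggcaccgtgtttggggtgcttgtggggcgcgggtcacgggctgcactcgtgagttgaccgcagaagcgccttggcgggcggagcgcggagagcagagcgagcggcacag
Rem2: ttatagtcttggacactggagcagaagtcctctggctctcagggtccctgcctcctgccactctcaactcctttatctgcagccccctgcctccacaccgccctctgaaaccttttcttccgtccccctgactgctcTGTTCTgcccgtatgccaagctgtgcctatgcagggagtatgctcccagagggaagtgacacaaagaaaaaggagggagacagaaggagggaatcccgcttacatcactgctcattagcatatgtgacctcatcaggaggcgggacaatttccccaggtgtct
Tbc1d24: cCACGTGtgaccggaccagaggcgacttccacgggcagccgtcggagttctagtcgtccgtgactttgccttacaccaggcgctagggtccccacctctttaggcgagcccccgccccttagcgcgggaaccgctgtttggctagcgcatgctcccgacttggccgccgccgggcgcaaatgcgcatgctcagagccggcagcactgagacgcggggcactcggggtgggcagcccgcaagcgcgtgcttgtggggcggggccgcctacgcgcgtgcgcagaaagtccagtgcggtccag
The element in Gpr6 started 78 bases before the start site, on the strand of the gene. The match in Rem2 started 113 bases before the start on the opposite strand, so it reads TGTTCT above, and that in Tbc1d24 249 bases before it. A match describes only these letters.

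The genes higher in inflexible drinkers in both regions were led by markers of striatal projection neurons, of both the direct and the indirect pathway. Penk, the precursor of the enkephalin opioid peptides, had log2 values of 7.04, 6.96 and 6.86 on the inflexible and 5.57, 5.03 and 5.51 on the light prefrontal arrays. In striatum Penk read 9.11, 9.03 and 8.88 on the inflexible and 8.33, 8.54 and 8.42 on the light arrays. Every inflexible array was above every light array of its region, and prefrontal values stayed below all striatal ones. Penk rose by 1.08 ± 0.09 (log2, SE) on average, 2.12-fold, with an adjusted p of 0.00152 (limma); the difference was 1.58 ± 0.13 in cortex and 0.58 ± 0.13 in striatum, and the interaction missed the threshold (adjusted p = 0.0701).

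Drd1 encodes the D1 dopamine receptor. Its values were 4.88, 5.12 and 4.92 on the inflexible and 3.81, 3.61 and 3.75 on the light prefrontal arrays, and 6.74, 6.66 and 6.43 against 5.71, 6.04 and 6.23 in striatum. The classes did not overlap in either region, though in striatum the highest light and the lowest inflexible array lay close together. Drd1 rose by 0.94 ± 0.09 on average (adjusted p = 0.00402), with 1.25 ± 0.13 in cortex and 0.62 ± 0.13 in striatum. The other Drd1 probe set gave 0.87 on average and was also apart in both regions.

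Gpr6, a receptor that signals through cyclic AMP without a known need for a ligand, had prefrontal values of 4.29, 3.86 and 4.35 on inflexible and 3.08, 2.96 and 3.07 on light arrays. Its striatal values were 6.10, 6.22 and 5.86 against 5.47, 5.51 and 5.29. In cortex the light arrays sat near the floor of the arrays, so the difference of 1.13 ± 0.13 there may be understated; the striatal difference was 0.63 ± 0.13. Gpr6 rose by 0.88 ± 0.09 on average (adjusted p = 0.00616).

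Rarb, the beta receptor for retinoic acid, read 4.04, 4.12 and 4.02 on inflexible and 3.45, 3.10 and 3.45 on light prefrontal arrays. In striatum it read 5.37, 5.37 and 5.44 against 4.97, 4.80 and 4.85. The lowest inflexible array was well above the highest light array in each region, with differences of 0.73 ± 0.09 in cortex and 0.52 ± 0.09 in striatum. Rarb rose by 0.63 ± 0.06 on average (adjusted p = 0.00402), and with array weights it was the named gene that passed in both regions at once, with an adjusted larger regional p of 0.0382.

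**Figure D2:**
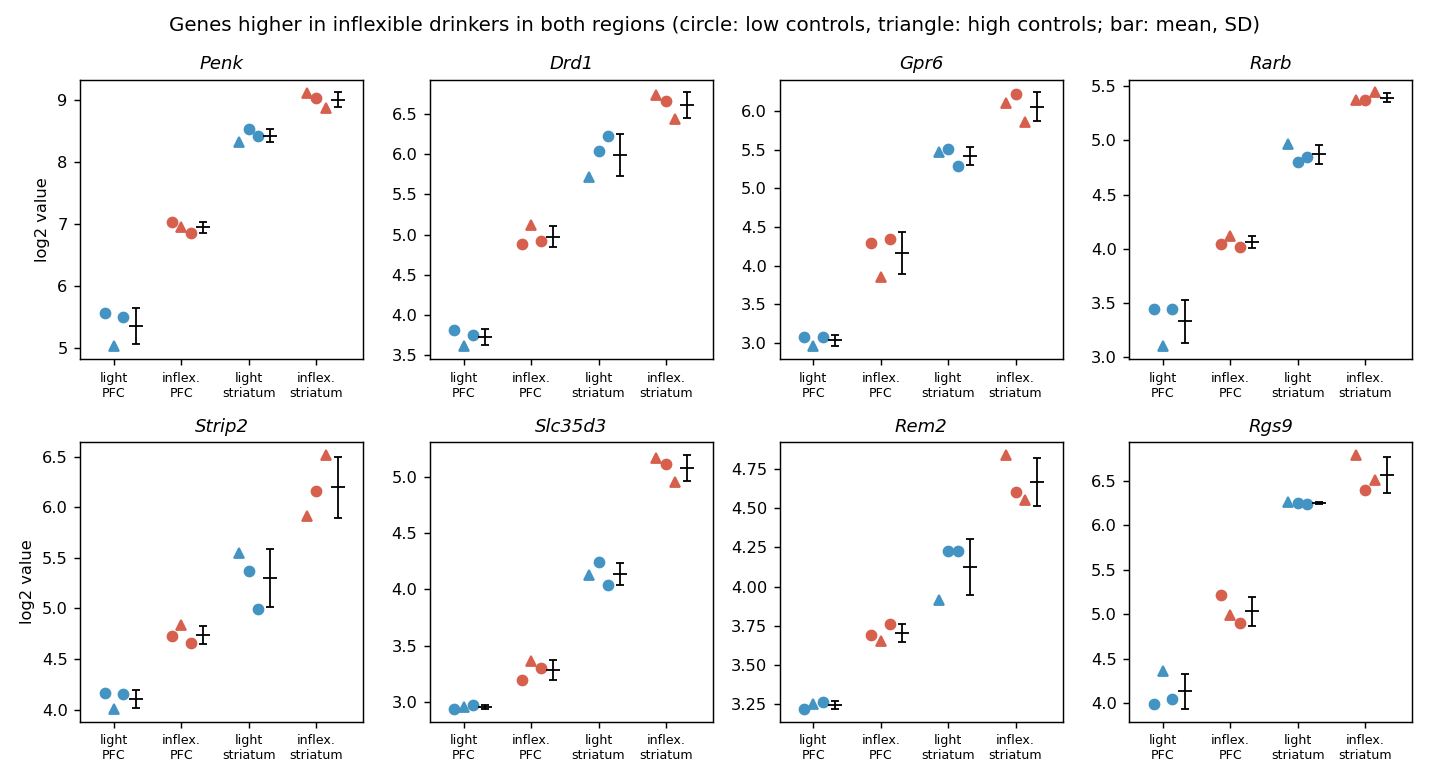
Log2 values on each array for 8 genes higher in inflexible drinkers in both regions, with blue points for light and red for inflexible drinkers, triangles for arrays with high hybridisation controls, and a bar at the mean with its SD (n = 3 arrays). For each gene the red points lie above the blue points of the same region; for Penk the light prefrontal mean was 5.37 and the light striatal mean 8.43.

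Rgs9 and Rgs2 encode regulators of G protein signalling, of which Rgs9 is enriched in striatum. Rgs9 averaged 5.04 ± 0.16 (SD, n = 3) on inflexible and 4.13 ± 0.20 on light prefrontal arrays, and 6.57 ± 0.20 against 6.25 ± 0.01 in striatum. Rgs9 rose by 0.61 ± 0.09 on average (adjusted p = 0.0265), more in cortex (0.90) than in striatum (0.31), though the interaction did not pass (adjusted p = 0.391). Rgs2 read 6.54, 6.39 and 6.45 on inflexible and 6.17, 6.11 and 6.10 on light prefrontal arrays, and 6.99, 7.32 and 7.28 against 6.71, 6.87 and 6.63 in striatum. Rgs2 rose by 0.40 ± 0.06 (adjusted p = 0.0409), with 0.34 in cortex and 0.46 in striatum, but its probe sets disagreed: of the 2 others above log2 4, 1 gave -0.08 and the other 0.55, neither of which passed. The call of Rgs2 was lost in 11 of the 12 fits that left out 1 array (adjusted p up to 0.129, without light prefrontal replicate 3) and that of Rgs9 in 9 (up to 0.0884, without light prefrontal replicate 3).

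Slc35d3, Kcna5 and Strip2 had the larger difference in striatum. Slc35d3, of a family of nucleotide sugar transporters, read 5.17, 5.12 and 4.95 on inflexible and 4.13, 4.24 and 4.04 on light striatal arrays. In cortex it was near the floor, at 3.19, 3.37 and 3.30 against 2.94, 2.96 and 2.97. Slc35d3 rose by 0.64 ± 0.05 on average (adjusted p = 9.19e-04), with 0.94 ± 0.07 in striatum and 0.33 ± 0.07 in cortex, and the regions differed by 0.61 ± 0.10 (interaction adjusted p = 0.0377). Kcna5, a voltage-gated potassium channel, was at the floor in cortex (3.07 ± 0.02 against 3.00 ± 0.02) and at 3.94 ± 0.04 against 3.29 ± 0.16 in striatum. Its average of 0.37 ± 0.05 passed (adjusted p = 0.0162) but rests on striatum, where the difference was 0.65 against 0.08 in cortex (interaction adjusted p = 0.0458). Strip2, of a family of proteins that scaffold a phosphatase and kinase complex, read 5.91, 6.17 and 6.52 on inflexible and 5.55, 5.37 and 4.99 on light striatal arrays, and 4.74 ± 0.09 against 4.11 ± 0.09 in cortex. Strip2 rose by 0.77 ± 0.11 (adjusted p = 0.0317), with 0.90 in striatum and 0.63 in cortex. Leaving out 1 array lost the call of Strip2 in 10 of 12 fits (adjusted p up to 0.0956, without light prefrontal replicate 1) and that of Kcna5 in 5 (up to 0.0616, without light prefrontal replicate 3).

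Of the other genes higher in both regions, Rem2 and Adamts3 had nearly equal differences. Rem2, a small GTPase that inhibits voltage-gated calcium channels, read 3.69, 3.65 and 3.76 against 3.22, 3.25 and 3.27 in cortex and 4.84, 4.61 and 4.55 against 3.92, 4.23 and 4.23 in striatum. Rem2 rose by 0.50 ± 0.07 (adjusted p = 0.0166), with 0.46 in cortex and 0.54 in striatum, and another, dimmer Rem2 probe set gave 0.40 and 0.42 without passing. Adamts3, a secreted metalloprotease that processes procollagen, was at 4.24 ± 0.05 against 3.88 ± 0.10 in cortex and 5.08 ± 0.07 against 4.73 ± 0.09 in striatum. Adamts3 rose by 0.36 ± 0.04 (adjusted p = 0.0129), which is 1.28-fold, with 0.36 in each region. Neto1, an auxiliary subunit of glutamate receptors of the kainate type, was at 6.62 ± 0.12 against 5.88 ± 0.07 in cortex and 6.98 ± 0.24 against 6.67 ± 0.11 in striatum. Neto1 rose by 0.53 ± 0.08 (adjusted p = 0.0319), and both its other probe sets had differences above 0 in each region without passing. Without 1 array the call was lost in 10 of 12 fits for Neto1 (adjusted p up to 0.108, without light prefrontal replicate 1), in 4 for Rem2 (up to 0.0647) and in 1 for Adamts3 (0.0503), both also without light prefrontal replicate 1.

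The genes lower in inflexible drinkers in both regions included extracellular matrix and vessel genes, an immunoglobulin gene and a glial lipid carrier. Mgp, matrix Gla protein, an inhibitor of calcification, read 4.68, 4.43 and 4.58 on inflexible and 5.26, 4.98 and 5.22 on light prefrontal arrays. In striatum it read 3.49, 3.86 and 3.67 against 4.33, 4.27 and 4.44. All light arrays were above all inflexible arrays of their region, by nearly the same step. Mgp fell by 0.63 ± 0.08 on average (adjusted p = 0.0102), with differences of -0.59 ± 0.11 in cortex and -0.67 ± 0.11 in striatum.

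Fmod, fibromodulin, a small proteoglycan that binds collagen, read 4.40, 3.97 and 4.38 on inflexible and 5.18, 5.06 and 5.20 on light prefrontal arrays, and 3.45 ± 0.06 against 3.77 ± 0.06 in striatum. Fmod fell by 0.60 ± 0.07 on average (adjusted p = 0.0103), with -0.89 in cortex and -0.31 in striatum. It has 6 probe sets, and the other 5, all under log2 4, had differences under 0 in both regions without passing. Thbd, thrombomodulin, an anticoagulant receptor of vessel walls, was at 3.38 ± 0.12 against 4.12 ± 0.15 in cortex and 3.18 ± 0.03 against 3.38 ± 0.20 in striatum. Thbd fell by 0.47 ± 0.07 (adjusted p = 0.0388), but the striatal step of -0.20 was close to the SD of the light arrays, and the call was lost in 10 of the 12 fits without 1 array (adjusted p up to 0.0991, without inflexible striatum replicate 1).

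Jchain encodes the chain that joins IgA and IgM into polymers. Its prefrontal values were 3.03, 3.10 and 3.18 on inflexible and 4.07, 4.16 and 3.92 on light arrays, and its striatal values 3.01, 3.03 and 3.00 against 3.25, 3.31 and 3.43. The inflexible arrays of both regions sat at the floor. Jchain fell by 0.63 ± 0.05 on average (adjusted p = 9.19e-04), with -0.95 ± 0.07 in cortex and -0.32 ± 0.07 in striatum, and the regions differed (interaction 0.63 ± 0.09, adjusted p = 0.0286). Among probe sets that do not represent a gene, and chosen here after their values were seen, an Igha probe set (immunoglobulin A heavy chain) read 3.58, 3.38 and 3.58 against 4.54, 4.47 and 4.67 in cortex and 3.45, 3.44 and 3.24 against 3.74, 4.26 and 3.95 in striatum, a fall of 0.83 ± 0.09 (adjusted p = 0.00616). Its sequence may be shared with other immunoglobulin genes, so the gene is uncertain.

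Fabp7, the brain fatty acid binding protein of astrocytes and neural progenitors, read 5.51, 5.61 and 5.51 on inflexible and 6.33, 6.35 and 6.36 on light prefrontal arrays. Its striatal values were 4.99, 5.32 and 5.11 against 5.38, 5.63 and 5.75, a narrow gap between the classes. Fabp7 fell by 0.63 ± 0.07 on average (adjusted p = 0.00756), with -0.81 in cortex and -0.45 in striatum. It was the 1 gene that passed among 15 measured astrocyte genes, against 0.374% of all genes. Of the 9 astrocyte genes with the same sign in both regions 4 were higher and 5 lower, and the median of the list was -0.02. Cdhr1, a cadherin of photoreceptors and of olfactory bulb output neurons, was at 3.40 ± 0.24 against 4.51 ± 0.26 in cortex and near the floor in striatum, 3.14 ± 0.05 against 3.37 ± 0.09. Cdhr1 fell by 0.67 ± 0.10 (adjusted p = 0.0312), of which -1.11 was in cortex and -0.22 in striatum, and its call was lost in 10 of 12 fits without 1 array (up to 0.0956, without light prefrontal replicate 1).

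Slc8a1, the sodium-calcium exchanger that clears calcium from excitable cells, had the largest striatal step of the 23 genes. Its striatal values were 4.18, 4.02 and 3.99 on inflexible and 4.84, 5.45 and 5.58 on light arrays, and its prefrontal values 4.95, 5.00 and 5.14 against 5.46, 5.58 and 5.41. Slc8a1 fell by 0.84 ± 0.11 on average (adjusted p = 0.0191), with -1.23 ± 0.16 in striatum and -0.45 ± 0.16 in cortex, and the interaction did not pass (adjusted p = 0.376). The other Slc8a1 probe set above log2 4 gave -0.08 on average, with 0.11 in cortex and -0.27 in striatum. The probe sets thus had opposite signs in cortex and disagreed in size. The call of Slc8a1 was lost in 7 of 12 fits without 1 array (adjusted p in limma up to 0.0656, without inflexible prefrontal replicate 1).

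Tbc1d24, a protein of vesicle traffic at synapses, had the smallest larger regional p of all named genes, 7.07e-05 before adjustment. It read 5.60, 5.55 and 5.57 on inflexible and 5.98, 5.90 and 5.98 on light prefrontal arrays, and 5.22, 5.24 and 5.10 against 5.58, 5.67 and 5.44 in striatum. Tbc1d24 fell by 0.38 ± 0.04 on average, 1.30-fold (adjusted p = 0.00616), with -0.38 in each region. Its other probe set above log2 4 gave 0.01 on average, with 0.29 in cortex and -0.27 in striatum, so the fall was seen with 1 of 2 probe sets.

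Nckap1, a subunit of the complex that starts branched actin filaments, fell by 0.22 ± 0.04 (adjusted p = 0.0475), from 8.38 ± 0.05 to 8.22 ± 0.04 in cortex and from 8.39 ± 0.08 to 8.12 ± 0.08 in striatum. Spag5, a protein of the mitotic spindle, and Zfp939, a zinc finger protein, both fell by 0.23 on average with means under log2 4. The Spag5 difference was -0.39 in cortex and -0.07 in striatum, where both classes were at the floor, and that of Zfp939 was -0.31 and -0.15. Without 1 array the call was lost in 11 of 12 fits for Nckap1 (adjusted p up to 0.141, without inflexible prefrontal replicate 3), in 11 for Zfp939 (0.144) and in 5 for Spag5 (0.0645), both without light prefrontal replicate 1.

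**Figure D3:**
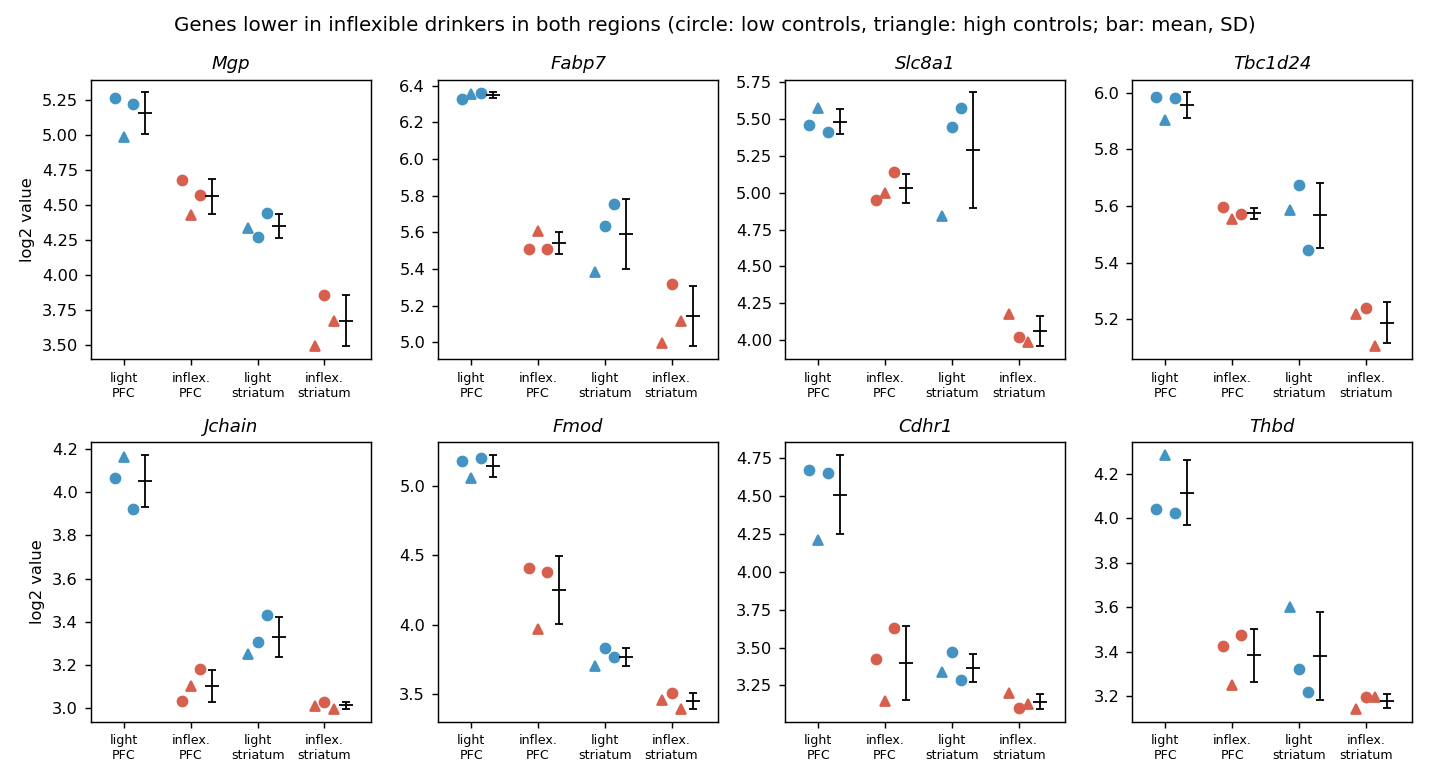
Log2 values on each array for 8 genes lower in inflexible drinkers in both regions, with blue points for light and red for inflexible drinkers, triangles for arrays with high hybridisation controls, and a bar at the mean with its SD (n = 3 arrays). Red points lie below the blue points of the same region for each gene; Mgp fell by 0.59 in cortex and by 0.67 in striatum, whereas for Jchain and Cdhr1 the striatal points of both classes are near the floor.

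The lists of genes by cell type and pathway, 36 in all, were described by counts beside the median of all 18193 genes, 0.003 on the log2 scale. They were chosen with earlier results of these data known and are given no test. Over all 18193 genes, for comparison with each list, 68 passed on average (0.374%). An unadjusted p under 0.05 in limma's test was seen for 1159 of all genes. Of the 20 measured genes of striatal projection neurons 7 rose on average and 0 fell (Penk, Bcl11b, Rarb, Drd1, Gpr6, Rgs9 and Pde10a), against 0.374% of all genes called either way. Of the 20, 16 had the same sign in both regions, all of them higher, against 49.5% of all genes with the same sign. Apart in both regions were 8, against 126 of all 18193 genes apart the same way (70 higher). The median difference was 0.51 in cortex and 0.34 in striatum. Among those that did not pass, Tac1, the substance P precursor, gave 1.05 in cortex and 0.79 in striatum (adjusted p = 0.0747), and Ppp1r1b, which encodes DARPP-32, the dopamine-regulated phosphatase inhibitor, 0.70 and 0.89 (adjusted p = 0.339). Drd2, the D2 dopamine receptor, gave 0.62 and 0.42 (adjusted p = 0.117), and Pdyn, the dynorphin precursor, 0.08 and 0.23 (adjusted p = 0.616). Bcl11b, a transcription factor, differed by 1.04 in cortex and -0.01 in striatum, and Pde10a, a cyclic nucleotide phosphodiesterase, by 1.43 and 0.19. Pde10a was lost in 10 of the 12 fits without 1 array (adjusted p up to 0.0997, without light prefrontal replicate 3). Meis2 had opposite signs, -0.47 in cortex and 0.60 in striatum.

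The mean level of the striatal list separated the classes on every array. It lay between 4.92 and 5.05 on inflexible and between 4.36 and 4.44 on light prefrontal arrays, and between 6.17 and 6.28 on inflexible and 5.78 and 5.87 on light striatal arrays. In both classes the cortical level was far under the striatal one. Such a separation was not particular to this list. The levels of the dopamine signalling, meningeal fibroblast and blood cell lists were also apart the same way in both regions. Those of the interneuron, neuroblast, hippocampal, and septum and thalamus lists were apart in opposite ways in the 2 regions. Of 18 cortical excitatory neuron genes 0 passed in limma's test and 5 had an unadjusted p under 0.05; their median was -0.17 in cortex and -0.02 in striatum. Its level overlapped between the classes in both regions (5.38 to 5.67 against 5.53 to 5.76 in cortex, and 5.10 to 5.31 against 5.07 to 5.30 in striatum). Whether the amount of striatal or adjoining tissue taken with each sample had a part in these values was not tested.

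Dopamine signalling genes numbered 16, with 3 higher and 0 lower, all 3 (Drd1, Rgs9 and Pde10a) also in the striatal list. Their median was 0.23 in cortex and 0.12 in striatum. The genes of dopamine-making neurons themselves were at the floor, with mean levels of 2.99 for Th, the enzyme that makes its precursor, and 2.94 for Slc6a3, the dopamine transporter, and average differences of -0.02 and 0.01. Of 25 opioid and stress peptide genes Penk and Npy2r, a neuropeptide Y receptor, rose. Npy2r gave 0.90 in cortex and -0.05 in striatum and was lost in 9 of the 12 fits without 1 array (adjusted p up to 0.0892, without light prefrontal replicate 1). Crh, corticotropin-releasing hormone, was at -0.73 in cortex and -0.02 in striatum and did not pass (adjusted p = 0.26). The opioid receptor genes Oprm1, Oprd1 and Oprk1 were at the floor, with average differences between -0.02 and 0.06.

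Genes of meningeal fibroblasts, the cells of the brain's coverings, leaned the other way. Of 13 measured 2 fell (Fmod and Slc6a20a) and 0 rose, and all 11 with the same sign in both regions were lower. The median was -0.31 in cortex and -0.18 in striatum. Slc6a20a, an amino acid transporter, was at 4.36 ± 0.13 against 5.10 ± 0.11 in cortex and 3.91 ± 0.06 against 4.14 ± 0.19 in striatum, where the arrays overlapped. Its call was lost in 10 of the 12 fits without 1 array (adjusted p up to 0.0899, without inflexible prefrontal replicate 3). The collagen genes Col1a2 (-0.49 and -0.21) and Col3a1 (-0.26 and -0.14) did not pass (adjusted p = 0.178 and 0.133). The mean level of the list was 4.26 to 4.39 on inflexible and 4.62 to 4.67 on light prefrontal arrays, and 3.97 to 3.99 against 4.20 to 4.30 in striatum, so the classes did not overlap.

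Ptgds, the prostaglandin D synthase of meninges and oligodendrocytes, is in the meningeal list and was represented by a probe set that did not pass (-0.84, adjusted p = 0.0674). Another Ptgds probe set, chosen after its values were seen, read 8.09, 7.61 and 7.90 on inflexible and 9.53, 8.83 and 9.43 on light prefrontal arrays and 6.72, 6.65 and 6.29 against 7.29, 7.43 and 7.22 in striatum. By that probe set Ptgds fell by 1.08 ± 0.14 (adjusted p = 0.0143), by -1.40 and -0.76 on the log2 scale in the 2 regions. Of 16 endothelial and mural genes 0 passed in limma's test and 3 had an unadjusted p under 0.05, with a median of -0.04, and 10 of the 12 with the same sign were lower; Vtn, vitronectin, gave -0.53 and -0.34 (adjusted p = 0.601). Of 9 blood cell genes, all under log2 4, Jchain fell and Hba-a1, an alpha globin, was at 0.00. Whether the share of coverings or blood in each sample moved with class was not tested.

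**Figure D4:**
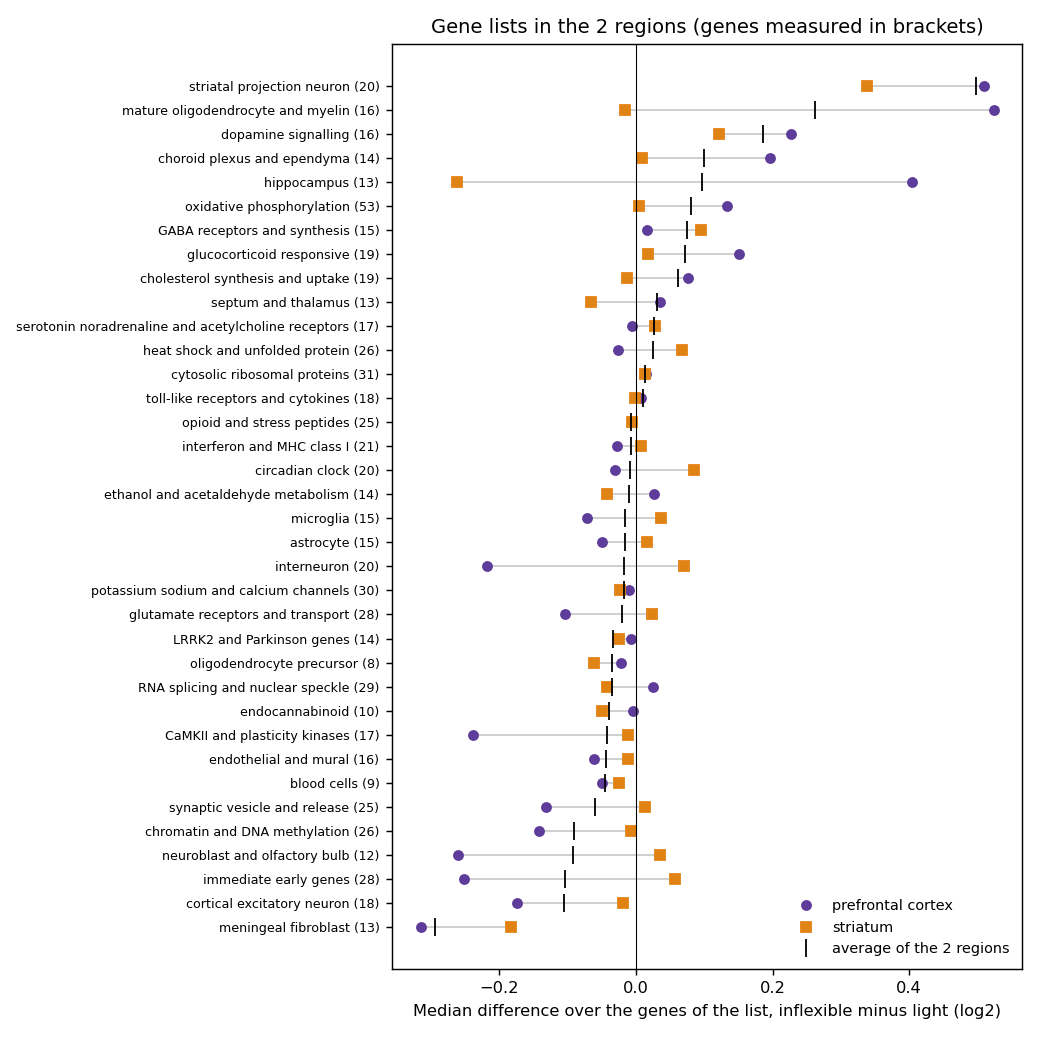
Median inflexible minus light difference (log2) over the measured genes of each of 36 lists, with circles for prefrontal cortex, squares for striatum and a tick for the average. The striatal projection neuron list (0.51 and 0.34) and the meningeal fibroblast list (-0.31 and -0.18) lie on the same side of 0 in both regions, whereas the hippocampal list lies at 0.40 in cortex and -0.26 in striatum.

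Some genes of other lists passed on average with a difference near 0 in striatum. Myelin genes, made by oligodendrocytes, numbered 16, of which Mobp, Mal and Ermn rose and 0 fell, with a median of 0.52 in cortex and -0.02 in striatum. Mobp, a structural myelin protein, read 7.63, 6.98 and 7.50 on inflexible and 5.53, 5.03 and 5.47 on light prefrontal arrays and overlapped in striatum, at 8.00 ± 0.12 against 7.94 ± 0.16. Its average of 1.05 ± 0.13 (adjusted p = 0.0106) came from 2.03 in cortex and 0.07 in striatum (interaction adjusted p = 0.0144). It passed in all 12 fits without 1 array, while Ermn was lost in 10 (adjusted p up to 0.0998, without light prefrontal replicate 1) and Mal in 7 (up to 0.0747, without light prefrontal replicate 3). The mean level of the list was 5.26 to 5.37 on inflexible and 4.52 to 4.68 on light prefrontal arrays. In striatum it was 5.64 to 5.73 against 5.68 to 5.83.

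The largest average of any gene was that of Ttr, transthyretin, the thyroid hormone carrier of the choroid plexus. It read 11.04, 10.28 and 11.03 on inflexible but 4.69, 4.36 and 4.55 on light prefrontal arrays, and 11.04 ± 0.28 against 11.33 ± 0.27 in striatum. The average of 2.98 ± 0.16 (adjusted p = 1.60e-04) joined 6.25 in cortex with -0.29 in striatum. Of the 14 choroid plexus and ependyma genes Ttr alone passed, and 13 lay under log2 4: Otx2 differed by 0.20 in cortex, Folr1 by 0.19 and Kcnj13 by 0.27. The list's mean level was 3.65 to 3.83 on inflexible and 3.10 to 3.13 on light prefrontal arrays, and 3.93 to 4.10 against 3.95 to 4.02 in striatum. The part of choroid plexus in these samples was not tested.

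Hippocampal genes had opposite signs in the 2 regions for 12 of 13. Nr3c2, the mineralocorticoid receptor, read 5.16, 5.31 and 5.30 against 3.97, 3.98 and 4.02 in cortex and 5.16, 5.37 and 5.38 against 5.82, 5.65 and 5.85 in striatum. The classes were apart in both regions, in opposite directions. Its average of 0.40 ± 0.05 passed (adjusted p = 0.0146), joining 1.27 with -0.47 (interaction adjusted p = 1.41e-04), as did that of Spink8, a protease inhibitor (0.87 and -0.23). Of the 12 fits without 1 array, Nr3c2 was lost in 3 and Spink8 in 11, with adjusted p up to 0.059 and 0.144, both without light prefrontal replicate 1. The mean level of the list was 4.21 to 4.34 against 3.77 to 3.79 in cortex and 4.39 to 4.50 against 4.59 to 4.70 in striatum, and its part in the gene results was not tested. Cabp7, a calcium binding protein, had 2.16 in cortex and -0.19 in striatum, and Shisa6, an auxiliary protein of AMPA receptors, 1.37 and -0.51. All 17 genes that passed on average with opposite signs also passed the interaction test.

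Other genes that passed on average without being apart in both regions were mostly prefrontal. Spock3, a secreted proteoglycan, was at 5.96 ± 0.07 against 4.54 ± 0.10 in cortex and overlapped in striatum, at 7.14 ± 0.35 against 6.59 ± 0.47; its average was 0.98 ± 0.16 (adjusted p = 0.0422). Mal, a proteolipid of myelin, differed by 1.50 in cortex and 0.15 in striatum. Another Mal probe set (mean 5.94) gave 1.18 and -0.15 and did not pass in limma's test (adjusted p = 0.376). Stx1a, the syntaxin of synaptic vesicle release, fell by 0.46 on average (adjusted p = 0.0265), with -0.84 in cortex and -0.08 in striatum. Another Stx1a probe set (mean 4.43) gave -0.73 and 0.07 and did not pass in limma's test (adjusted p = 0.925). Stx1a was the 1 gene called among 25 of synaptic release. Ipcef1, Pdzrn3 and Ranbp3l fell by 0.41, 0.40 and 0.35 on average, with striatal differences of -0.22, 0.01 and -0.19. Ipcef1 passed in all 12 fits without 1 array. Ranbp3l was lost in 11 of them (adjusted p up to 0.101, without light striatum replicate 2), Pdzrn3 in 9 (0.0747) and Spock3 in 10 (0.133), both highest without light prefrontal replicate 3, and Stx1a in 9 (0.0892, without light prefrontal replicate 1). Sgk1, the serum and glucocorticoid regulated kinase, rose by 0.50 (adjusted p = 0.0326), with 0.71 in cortex and 0.29 in striatum, and it and Nr3c2 were the 2 of 19 glucocorticoid-responsive genes that passed. Sgk1 was lost in 11 of the 12 fits without 1 array (adjusted p up to 0.109, without light prefrontal replicate 3).

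Activity-induced genes, whose transcription follows neuronal firing, leaned lower in cortex. Of 28 such genes Trib1, a regulator of protein degradation, fell by 0.18 on average (adjusted p = 0.0257), with -0.30 in cortex and -0.06 in striatum and a mean near the floor, and 10 of the 28 had the same sign in both regions. Egr2, a zinc finger transcription factor, was at -0.88 in cortex and 0.06 in striatum and did not pass (adjusted p = 0.0647). With the control split in the fit the Egr2 average passed in limma's test (adjusted p = 0.0438). The median of the list was -0.25 in cortex and 0.06 in striatum. Meg3, a long non-coding RNA listed with splicing genes, fell by 0.26 (adjusted p = 0.0326), with -0.43 and -0.09. Of the 12 fits without 1 array, Trib1 was lost in 8 (adjusted p up to 0.083, without inflexible prefrontal replicate 3) and Meg3 in 11 (up to 0.114, without light prefrontal replicate 1). Meg3 did not pass in 19 of its 23 alternatives. In 21 of the 36 lists 0 of 436 entries passed in limma's test. Among these lists were microglia, GABA and glutamate receptors, interferon and cytokine genes, ethanol metabolism, oxidative phosphorylation and ribosomal proteins. Of the 436 entries 50 had an unadjusted p under 0.05, against 1159 of all 18193 genes. Some of these calls changed with the control split in the fit: Gad2, an enzyme of GABA synthesis, then passed in limma's test (adjusted p = 0.0470).

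Another 5 genes, known from reports on this mouse model, were read in any case, and 0 of 5 passed on average by the brightest probe set of each. Lrrk2, a kinase of Parkinson's disease, differed by 0.12 ± 0.07, with 0.00 in cortex and 0.25 in striatum. Camk2a, the main calcium and calmodulin dependent kinase subunit of excitatory synapses, gave -0.31 and -0.29 with SE of 0.19, so the classes overlapped in both regions (adjusted p = 0.859). Of its 3 other probe sets above log2 4, 2 had average differences of the opposite sign, 0.20 and 0.09, and none of the 3 passed. Camk2n1, an inhibitor of that kinase, gave -0.24 and 0.11, while its dimmer probe set (mean 3.97) gave -2.09 and -0.02 and passed on average (-1.05, adjusted p = 9.19e-04). Gabbr1, a GABA-B receptor subunit, was at 0.00 ± 0.11. Pkp2, a desmosomal plakophilin, gave 1.14 in cortex and -0.21 in striatum; its average of 0.47 ± 0.08 missed the threshold (adjusted p = 0.0654) and passed with the control split in the fit (adjusted p = 0.00216). A dimmer probe set of Pkp2 (mean 3.77) passed on average, at 0.35 (adjusted p = 0.0397), with 0.78 in cortex and -0.08 in striatum.

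The edge of the calls lay at small differences. The last gene to pass was Gpr155, at 0.33 (adjusted p = 0.0496), and the first that did not was Slc13a4, at -0.29 (adjusted p = 0.0509).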

How the data were processed

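Gene expression was measured on 12 single-colour arrays with 3 for each of 4 groups, on total RNA extracted with TRIzol per the labels' protocols. The authors deposited log2 probe set values; per the submitters' processing notes RMA and affy were used, no version given. That the base is 2 was taken from the values (2.76 to 11.56). RMA compresses low values, so fold changes of dim genes are understated. The number of arrays limits the precision.

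Of 45101 probe sets 64 controls were left out. The platform annotation gave 34945 probe sets 1 symbol, 932 several and 9160 none, and 34741 matched RefSeq by gene ID, which changed 0 symbols. Where a gene had several probe sets (9010 genes), the brightest across all arrays represented it.

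A model with 4 group means was fitted with limma 3.58.1 in R 4.3.3 (8 residual degrees of freedom), with two-sided p-values adjusted by Benjamini-Hochberg over 45037 probe sets. The contrast was the mean of the 2 regional differences. Named were up to 14 genes each way that passed on average and were apart in both regions, the 5 largest others each way, up to 4 of opposite sign, list members with the smallest p, and 5 genes recalled from reports on this model, which are not independent evidence. Clone-named models were counted only. Members, lists and motifs were chosen with earlier results of these data known. The code was tested on simulated data. Replicate numbers were not taken as pairs. Correlations of same-numbered arrays, after removal of group means, ran from -0.77 to 0.85. The control split fell unevenly over replicate numbers, so these correlations cannot tell whether same-numbered arrays came from the same mice. Alternatives covered blocks for replicate number and control split, subsets of arrays, normalisation, low-value filter, array weights, variance trend, minimum fold, an additive model and leaving out each array.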

Additional observations from a re-analysis of the deposited data

Results flagged for a closer look

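For 10 named genes the class difference itself differed between striatum and prefrontal cortex in limma's interaction test (Benjamini-Hochberg adjusted p under 0.05), so that their average joins unlike regional values. The striatal minus prefrontal difference, on the log2 scale, was -6.54 for Ttr (SE 0.32, adjusted p = 6.76e-05), -2.35 for Cabp7 (0.13, 1.04e-04), -1.96 for Mobp (0.25, 0.0144), -1.88 for Shisa6 (0.10, 1.04e-04), -1.74 for Nr3c2 (0.10, 1.41e-04) and -1.35 for Pkp2 (0.17, 0.0130). In these 6 the prefrontal difference was the higher. It was 0.83 for Pdzrn3 (0.11, 0.0200), which was lower in cortex, and 0.63 for Jchain (0.09, 0.0286), which was lower in both regions but more so in cortex. It was 0.61 for Slc35d3 (0.10, 0.0377) and 0.58 for Kcna5 (0.09, 0.0458), the 2 of these genes that were higher in both regions and more so in striatum.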

How the results depend on the processing

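The count of 140 probe sets that passed on average was 161 after quantile normalisation and 136 after median centring. It was 87 among probe sets with a mean above log2 4 (63.2% of them higher in inflexible drinkers, against 47.9%), 92 with a variance trend and robust fit, 14 when differences had to exceed 1.2-fold (71.4% higher) and 16 in a model of class and region without interaction (37.5% higher). Array weights gave 715 (36.5% higher), the control split as a block 436, the low-control arrays alone 297 and the high-control arrays alone, with 1 array in 3 of the groups, 0. With the replicate block it was 57. The numbers were not taken as pairs in the main fit. That 3 of 12 arrays correlated best with an array of their own number cannot settle pairing, because the control split fell unevenly over the numbers. Leaving out 1 array gave 58 to 149. The count of 67 that also were apart in both regions was 29 with the replicate block, 126 with the control split, 244 in the low-control and 0 in the high-control arrays, 36 above log2 4, 179 with array weights, 7 past 1.2-fold and 16 without interaction. Leaving out 1 array gave 31 to 78. The count that passed in each region was 0 in each fit that gave it except for 2 with array weights (the minimum fold and the model without interaction give none), and 75 probe sets were apart in both regions with a smaller difference of at least 0.26. Of the 23 genes apart in both regions 0 changed sign under any alternative. For fits to fewer arrays or with array weights the rule that chose the genes fixed this. It required all arrays of 1 class to lie above all of the other in each region. All 23 passed with the control split, but so did all 140 probe sets. Of the 23 genes, 13 did not pass with the replicate block, 20 when differences had to exceed 1.2-fold and 17 without interaction. Those not passing numbered 6 with a variance trend and robust fit, 4 after quantile normalisation and 1 among probe sets above log2 4. Leaving out 1 array lost 5 to 13 of the 23. Gabbr1, not called in any fit, changed sign: -0.0468 in the low-control arrays, -0.0934 with array weights and -0.0693 to 0.0752 without 1 array. The few arrays and values near the floor limit what could be seen: 29 of the 67 probe sets had a mean under log2 4.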
